A study of Mus musculus with 6 samples.

Results

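The genes described here carry peptides to the cell surface on MHC class I molecules, together with Cd274, which encodes the checkpoint ligand PD-L1. They are the 10 rows of the deposited FPKM table named H2-K1, H2-D1, B2m, Tap1, Tap2, Tapbp, Psmb8, Psmb9, Nlrc5 and Cd274, chosen by symbol from 16426 genes. FPKM is a fragment count corrected for the length of the transcript and the size of the library, so levels can be compared between genes. All 10 reached at least 1 FPKM in at least 3 libraries, the filter that left 10804 genes for testing.

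The cells were 4T1-LM3, labelled a murine mammary carcinoma line, and the RNA was polyA RNA. All 6 samples received conditioned medium (CM), which carries what cultured donor cells release. In 3 samples it was control CM, whose donor the labels do not give, and in the other 3 it came from matrix fibroblasts (MFs) named Tdo2high, after the tryptophan-degrading enzyme Tdo2. Dose, time in medium and the origin of the fibroblasts are not given in the labels, nor is it stated that replicates came from separate cultures. The p-values therefore reflect only how far these samples differ among themselves, which may be technical variation. Because no group received medium from fibroblasts low in Tdo2, an effect of Tdo2 cannot be told apart from other differences between the media.

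MHC class I molecules show fragments of a cell's own proteins to CD8 T cells. The proteasome cuts proteins into peptides, the TAP transporter moves them into the endoplasmic reticulum, and tapasin helps load them onto a heavy chain paired with beta-2-microglobulin. NLRC5 is a transactivator of many of these genes, and interferon-gamma induces most of them. PD-L1 acts in the opposite sense at the surface, since it binds PD-1 on T cells and restrains them.

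Of the 10 genes, 2 fell with Tdo2high CM and none rose by limma at an adjusted p under 0.05. They were Tap2, a subunit of the peptide transporter (log2 fold change -0.16 ± 0.03 SE), and H2-D1, a class I heavy chain (-0.12 ± 0.03). At an unadjusted p under 0.05, 5 of the 10 were lower and none was higher. Among all tested genes 4.06% were called lower and 3.35% higher, and 14.1% were lower and 9.68% higher at an unadjusted p under 0.05. Every estimate was small: the 95% intervals of all 10 genes lay between -0.22 and 0.19 on the log2(FPKM + 1) scale. A total of 9 of the 10 estimates were below 0, and Cd274 was the exception. Over all tested genes, 56.4% of estimates were below 0. The median log2 fold change of the 10 genes was -0.08, and that of all tested genes was -0.01.

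The sequence just upstream of the annotated starts is shown for the genes of the surface complex, for the region between Tap1 and Psmb9, and for Cd274, because all 3 surface genes were lower in every treated library and Cd274 was not. The bases come from RefSeq on GRCm38.p6, on the strand of the gene (of Tap1 for the shared region), and end at the base before the start. Capitals mark matches on either strand to the interferon regulatory factor core AANNGAAA, to the NF-kB consensus, to CCAAT (a core of the Y box) or to TGACG (a core of cyclic AMP response elements and of the X box).
H2-K1: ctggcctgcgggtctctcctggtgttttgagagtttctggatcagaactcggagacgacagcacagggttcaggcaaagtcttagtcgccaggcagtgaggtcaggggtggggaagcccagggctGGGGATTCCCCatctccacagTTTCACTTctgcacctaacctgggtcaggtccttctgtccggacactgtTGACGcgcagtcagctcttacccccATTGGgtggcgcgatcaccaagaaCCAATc
H2-D1: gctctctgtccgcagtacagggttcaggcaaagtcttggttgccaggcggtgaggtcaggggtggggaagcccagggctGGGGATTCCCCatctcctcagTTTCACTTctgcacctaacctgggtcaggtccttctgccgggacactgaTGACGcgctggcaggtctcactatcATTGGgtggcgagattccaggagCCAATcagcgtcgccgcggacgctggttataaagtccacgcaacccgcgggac
B2m: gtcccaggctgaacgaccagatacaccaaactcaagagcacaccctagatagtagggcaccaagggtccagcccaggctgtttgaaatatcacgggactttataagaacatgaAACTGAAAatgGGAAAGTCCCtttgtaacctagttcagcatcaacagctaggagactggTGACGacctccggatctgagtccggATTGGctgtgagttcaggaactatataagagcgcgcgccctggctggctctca
Tap1 and Psmb9: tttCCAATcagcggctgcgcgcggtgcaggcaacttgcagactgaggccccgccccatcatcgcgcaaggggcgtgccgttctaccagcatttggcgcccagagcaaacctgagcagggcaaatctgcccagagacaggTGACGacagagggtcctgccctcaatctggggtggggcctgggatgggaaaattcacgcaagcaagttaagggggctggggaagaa
Cd274: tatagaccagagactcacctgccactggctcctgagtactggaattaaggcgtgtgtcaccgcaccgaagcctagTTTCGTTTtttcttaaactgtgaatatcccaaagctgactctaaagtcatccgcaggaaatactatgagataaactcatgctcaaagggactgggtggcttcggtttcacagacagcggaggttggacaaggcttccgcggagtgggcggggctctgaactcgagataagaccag
The windows are chr17:34000334-34000583 for H2-K1, chr17:35262844-35263093 for H2-D1, chr2:122147437-122147686 for B2m, chr17:34187331-34187555 for the region between Tap1 and Psmb9, and chr19:29367188-29367437 for Cd274. H2-K1 and Cd274 each have another annotated start farther upstream, which is not shown. For H2-K1 the start farther downstream was picked, and for the other genes the first one listed was used.

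H2-K1, H2-D1 and B2m held matches to all 4 motifs. In both heavy chain genes the NF-kB match was counted in both overlapping registers of its run, and no other matches in the sequences shown overlapped. Cd274 held only AANNGAAA, and the 225 bases between Tap1 and Psmb9 held CCAAT and TGACG. Tapbp, also lower in every treated library, is not shown and held only CCAAT. Psmb8, whose groups overlapped, is not shown either and held none of the 4. Whether the motifs relate to the direction of change was not tested. RefSeq windows were found for 8 of the 10 genes, not for Tap2 or Nlrc5. In windows of 250 bases (225 for Tap1), AANNGAAA was present in 4 of the 8, the NF-kB consensus in 3, CCAAT in 6 and TGACG in 5. The CCAAT and the TGACG between Tap1 and Psmb9 are counted for both genes. H2-K1 and H2-D1, close relatives whose windows held the same matched bases, are also counted separately. Of all 32851 promoter windows, 21.31% held AANNGAAA, 7.25% the NF-kB consensus, 33.85% CCAAT and 17.77% TGACG. The matches are a description of letters and say nothing of binding in these cells.

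Levels differed far more between the genes of the pathway than between the media. With control CM, B2m stood highest at 2347 ± 9.40 FPKM (SD, n = 3), above H2-K1 at 1634 ± 15.8 and H2-D1 at 1375 ± 29.7. Together these 3 transcripts took 1.11% to 1.22% of the summed FPKM of a library. Below them came Psmb8 (178 ± 8.02), Tapbp (141 ± 2.82), Tap2 (87.8 ± 1.48), Psmb9 (78.6 ± 5.89), Tap1 (41.6 ± 0.993), Nlrc5 (18.4 ± 1.46) and Cd274 (5.48 ± 0.155). Neighbours in this order did not overlap in the control libraries. With Tdo2high CM, Tap2 and Psmb9 overlapped and all other neighbours stayed apart.

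**Figure D1:**
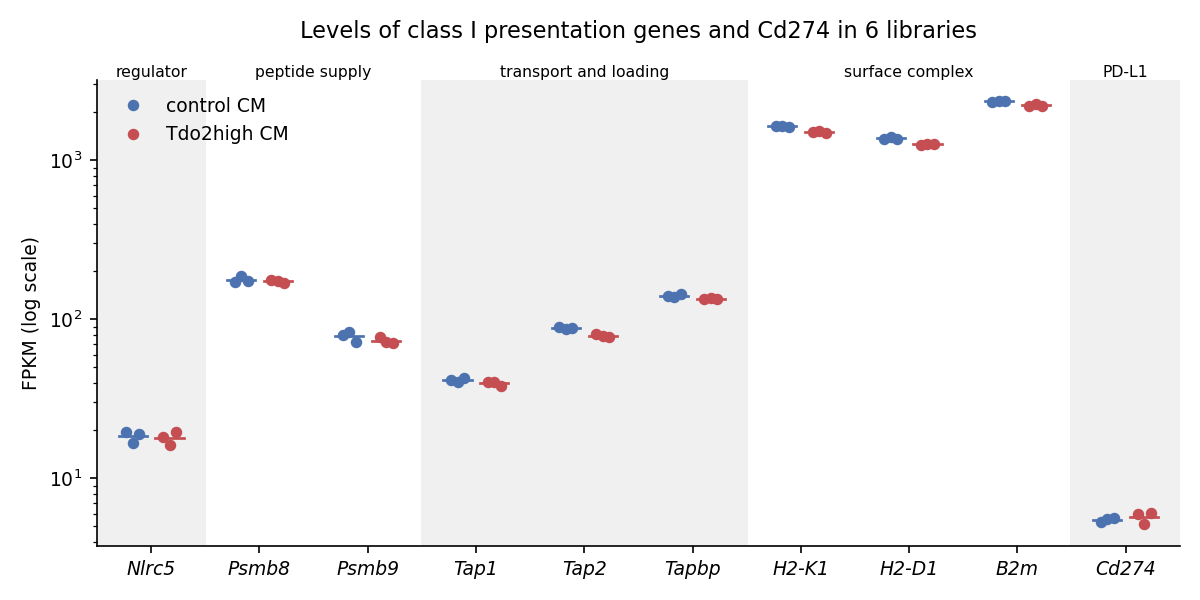
FPKM on a log axis for the 10 genes in the 3 control CM libraries (blue) and the 3 Tdo2high CM libraries (red), with group means as short lines. The surface complex genes stand between 1247 and 2358 FPKM and Cd274 between 5.12 and 6.04 FPKM.

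The level of the transactivator was measured first, at the head of the pathway. Nlrc5 stood at 19.5, 16.8 and 19.1 FPKM with control CM and at 18.1, 16.3 and 19.5 FPKM with Tdo2high CM. The groups overlapped along nearly their whole range. Its log2 fold change was -0.04 (95% interval -0.19 to 0.11), with adjusted p = 0.782 by limma. The estimate was above 0 without control CM replicate 1 or without Tdo2high CM replicate 2, so these data give it no direction. Nlrc5 lies on chromosome 8 from 94434335 to 94527272 on GRCm38.

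Peptide supply was represented by Psmb8 and Psmb9, catalytic subunits that take the place of constitutive ones in the immunoproteasome and favour peptides that fit class I. Neither passed the test. Psmb8 stood at 172, 187 and 175 FPKM with control CM and at 176, 175 and 169 FPKM with Tdo2high CM. Control CM replicate 2 was above all other libraries and the remaining values were intermixed. Its log2 fold change was -0.03 (95% interval -0.11 to 0.05, adjusted p = 0.605), and 0.0024 without that library. Psmb9 stood at 79.7, 83.8 and 72.2 FPKM with control CM and at 77.8, 72.4 and 70.4 FPKM with Tdo2high CM. The groups overlapped because control CM replicate 3 fell among the treated libraries. The log2 fold change of Psmb9 was -0.09 (95% interval -0.21 to 0.03, adjusted p = 0.333). It was -0.05 without control CM replicate 2 and -0.15 without control CM replicate 3.

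The share of inducible over constitutive subunits does not depend on how a library is scaled. The ratio of Psmb8 to Psmb5, the subunit it replaces, was 1.76, 1.81 and 1.80 with control CM and 1.64, 1.71 and 1.65 with Tdo2high CM, each value being a ratio of FPKM + 1. All treated libraries lay below all control libraries. The log2 ratio was 0.84 ± 0.02 with control CM and 0.74 ± 0.03 with Tdo2high CM (SD, n = 3 each), a difference of -0.10. The ratio of Psmb9 to Psmb6 was 1.12, 1.07 and 0.982 with control CM and 0.925, 0.962 and 0.875 with Tdo2high CM, again without overlap (log2 difference -0.19). The ratio of Psmb10, the remaining inducible subunit, to Psmb7 was 0.318, 0.308 and 0.281 against 0.283, 0.254 and 0.251. Here control CM replicate 3 fell below Tdo2high CM replicate 1, and the log2 difference was -0.20. By an exact two-sided permutation test the p-values were 0.1, 0.1 and 0.2, and 0.1 is the smallest that 3 against 3 libraries can give, so none could pass 0.05. Both sides entered these ratios. Among the constitutive subunits Psmb7 rose, from 193 ± 3.56 to 211 ± 8.39 FPKM (adjusted p = 0.0446 by limma), while Psmb5 (log2 fold change 0.07, adjusted p = 0.26) and Psmb6 (log2 fold change 0.10, adjusted p = 0.215) did not pass. The call of Psmb7 ended in 11 of 16 alternatives, among them every fit without 1 library.

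The transport and loading step gave the firmer of the 2 calls. Tap2, which pairs with Tap1 to form the peptide transporter, stood at 89.3, 86.3 and 87.8 FPKM with control CM and at 81.0, 78.0 and 77.1 FPKM with Tdo2high CM. Every treated library was below every control library, and the mean changed by -10.4%. The log2 fold change was -0.16 (95% interval -0.22 to -0.09, adjusted p = 0.0128 by limma). This call held in 14 of 16 alternatives and ended without Tdo2high CM replicate 3 (adjusted p = 0.0543) and with no intensity trend in the variance model (0.0519). Tap2 lies on chromosome 17 from 34204479 to 34216321.

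Tap1, its partner, stood at 41.8, 40.6 and 42.5 FPKM with control CM and at 40.1, 40.2 and 38.1 FPKM with Tdo2high CM. All treated libraries were lower, but the test did not call the gene (log2 fold change -0.07, 95% interval -0.15 to 0.0003, adjusted p = 0.213). Tapbp encodes tapasin, which bridges the transporter and empty class I molecules. It stood at 140, 138 and 144 FPKM with control CM and at 134, 136 and 134 FPKM with Tdo2high CM, without overlap but also without a call (-0.06, 95% interval -0.12 to -0.01, adjusted p = 0.178). The ratio of Tap2 to Tap1, chosen after the values were seen, was 2.11, 2.10 and 2.04 with control CM and 1.99, 1.92 and 2.00 with Tdo2high CM. The treated libraries were all lower, by 0.08 on the log2 scale, with p = 0.1 by an exact two-sided permutation test.

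At the surface step, H2-D1 stood at 1356, 1410 and 1360 FPKM with control CM and at 1247, 1275 and 1263 FPKM with Tdo2high CM. The groups did not overlap, the mean changed by -8.27%, and the log2 fold change was -0.12 (95% interval -0.20 to -0.05). H2-D1 passed the test narrowly (adjusted p = 0.0484 by limma), and 10 of 16 alternatives ended the call, among them scaling by the median of ratios (adjusted p = 0.0878) and every fit without 1 library (up to 0.154). H2-K1, the other classical heavy chain, stood at 1642, 1645 and 1616 FPKM with control CM and at 1500.4, 1521 and 1494 FPKM with Tdo2high CM. Its groups did not overlap either, and its mean changed by -7.91%. H2-K1 just missed the threshold (log2 fold change -0.12, 95% interval -0.19 to -0.05, adjusted p = 0.0528), which 5 of 16 alternatives moved it past. The ratio of H2-D1 to H2-K1, also chosen after the values were seen, ran from 0.826 to 0.857 with control CM and from 0.831 to 0.846 with Tdo2high CM. The groups overlapped in this ratio (log2 difference -0.01, p = 0.9 by an exact two-sided permutation test that cannot go below 0.1). No difference between the heavy chains was shown.

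B2m, the light chain that every class I molecule needs, stood at 2340, 2344 and 2358 FPKM with control CM and at 2187, 2269 and 2206 FPKM with Tdo2high CM. All treated libraries were lower and the mean changed by -5.40%, but the gene was not called (log2 fold change -0.08, 95% interval -0.16 to -0.002, adjusted p = 0.202 by limma). Under quantile normalization its log2 fold change was -0.22 (adjusted p = 0.00138). That method replaces each value by the mean for its rank, and B2m ranks among the most abundant genes, at the 99.9th percentile of tested genes. The ratio of B2m to the summed heavy chains H2-K1 and H2-D1 was 0.780, 0.768 and 0.792 with control CM and 0.796, 0.811 and 0.800 with Tdo2high CM. The treated libraries were all higher, by 0.04 on the log2 scale, with p = 0.1 by an exact two-sided permutation test, the smallest possible.

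**Figure D2:**
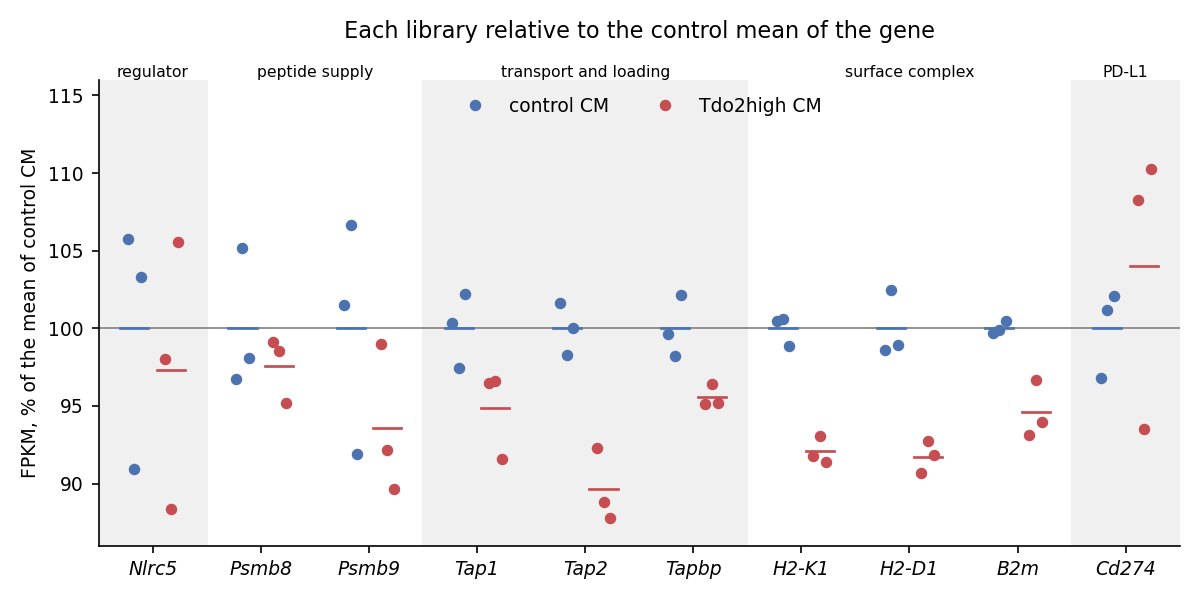
FPKM of each library as a percentage of the control CM mean of that gene, for control CM (blue) and Tdo2high CM (red), with group means as short lines. The treated libraries lie between 87.8% and 92.3% for Tap2, 90.7% and 92.7% for H2-D1 and 91.4% and 93.1% for H2-K1, and the groups overlap for Nlrc5, Psmb8, Psmb9 and Cd274.

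The heavy chain genes are close relatives, which bears on their levels. The coding sequences of H2-K1 (1110 bases) and H2-D1 (1089 bases) were 92.0% identical in the reference, and 10.3% of the 50-base windows of H2-D1 occurred unchanged in H2-K1. None of its 100-base windows did. Up to 4.6% of 100-base windows of H2-D1 occurred in a more distant heavy chain gene, H2-T23. How fragments that match several heavy chains were counted is not given in the sources used here, so values of this family are uncertain where reads are shared. The 4T1 tumour arose in a mouse of BALB/c background, whose H2 haplotype differs from that of the C57BL/6J reference. How this affects the levels of these genes, or their comparison between the media, was not tested. H2-K1 lies on chromosome 17 from 33996012 to 34000619, H2-D1 on chromosome 17 from 35263094 to 35267497 and B2m on chromosome 2 from 122147687 to 122153082.

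Cd274 stood at 5.30, 5.54 and 5.59 FPKM with control CM and at 5.93, 5.12 and 6.04 FPKM with Tdo2high CM. The treated libraries held both the highest values and the lowest value, so the groups overlapped. The log2 fold change was 0.05 (95% interval -0.10 to 0.19, adjusted p = 0.709 by limma), an interval that leaves room for either direction. It was 0.0082 without Tdo2high CM replicate 3 and 0.11 without Tdo2high CM replicate 2. The spread was wider with Tdo2high CM (SD 0.502 FPKM) than with control CM (0.155 FPKM). Cd274 lies on chromosome 19 from 29362107 to 29388095, outside the MHC.

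**Figure D3:**
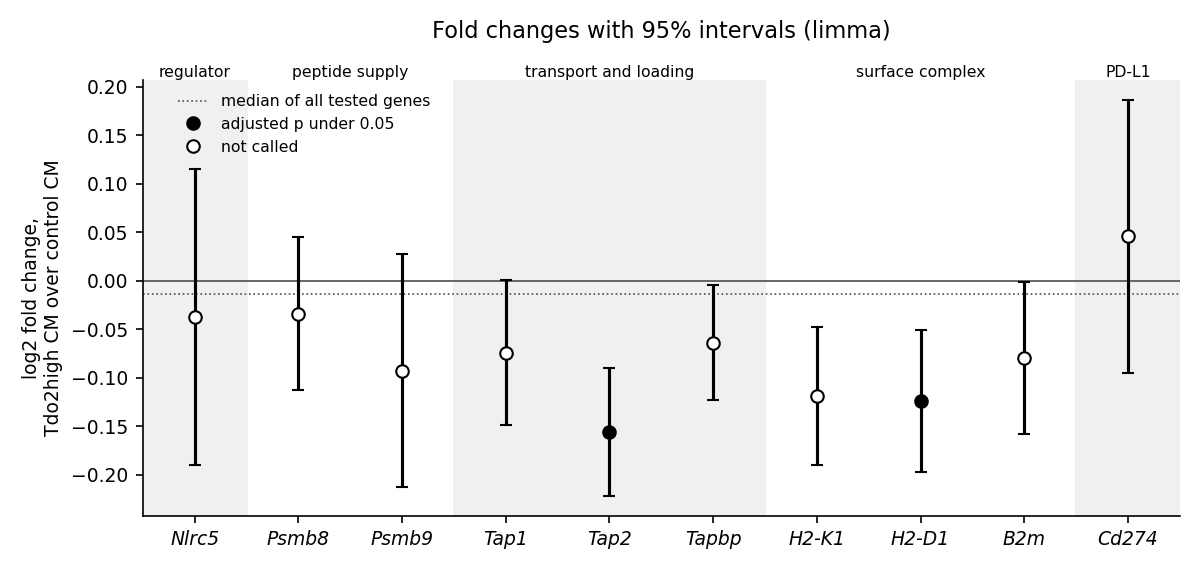
Log2 fold change of log2(FPKM + 1), Tdo2high CM over control CM, with 95% intervals from limma for the 10 genes, ordered by step. Filled points are Tap2 and H2-D1, the 2 genes called at an adjusted p under 0.05, and the dotted line is the median of all tested genes (-0.01).

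In 6 of the 10 genes the treated libraries lay wholly below the control libraries: Tap1, Tap2, Tapbp, H2-K1, H2-D1 and B2m. This was the case for 17.5% of all tested genes. These 6 are all the genes of the transport and surface steps, while the supply step, the regulator and Cd274 overlapped. By step, the median log2 fold change was -0.06 for peptide supply, -0.07 for transport and loading and -0.12 for the surface complex. Whether the steps differ was not tested.

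A total of 7 of the 10 genes lie on chromosome 17, and 6 of these lie from H2-K1 to H2-D1 within the MHC. Psmb9, Tap1, Psmb8 and Tap2 are direct neighbours there, between 34182030 and 34216321. The starts of Psmb9 and Tap1 face away from each other, with 225 bases between them in RefSeq. Their GENCODE ranges, unlike those of RefSeq, overlap at that end, where reads cannot be told apart without strand information. The other 43 tested genes between H2-K1 and H2-D1 had a median log2 fold change of -0.01, with 2 called lower and 4 higher. Over all tested genes the shares were 4.06% lower and 3.35% higher.

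**Figure D4:**
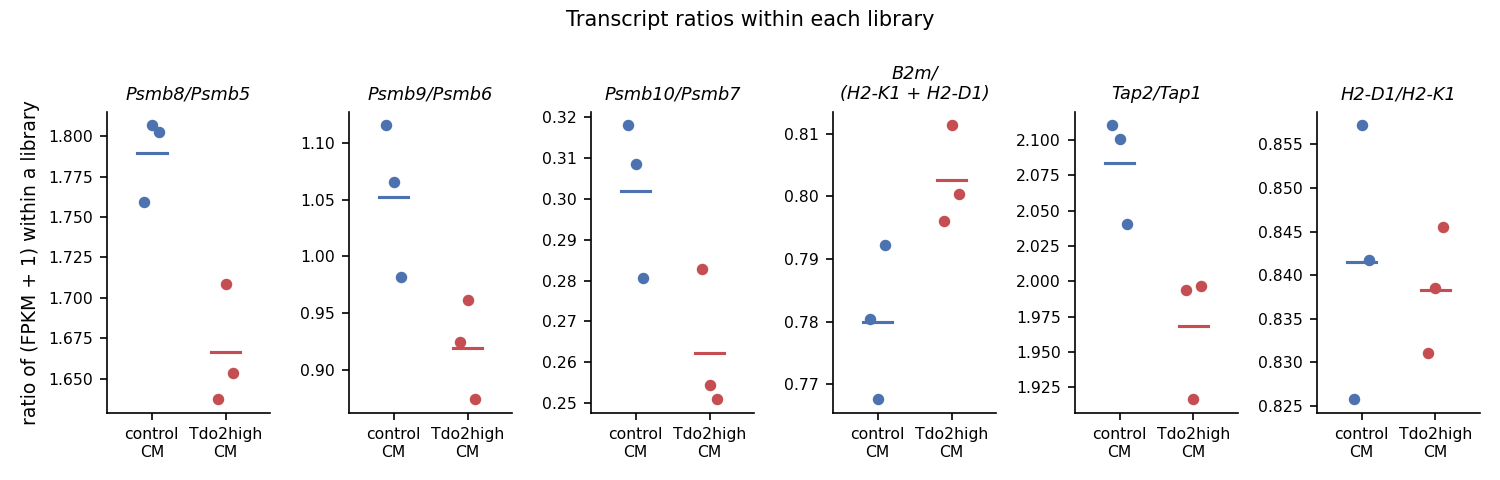
Ratios of FPKM + 1 within each library, with control CM in blue and Tdo2high CM in red and the group's geometric mean as a short line; each panel has its own axis, which does not start at 0. The groups do not overlap for Psmb8/Psmb5, Psmb9/Psmb6, B2m over the heavy chains and Tap2/Tap1, and overlap for Psmb10/Psmb7 and H2-D1/H2-K1.

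The rest of the pathway and its neighbours were read from 10 lists with 96 tested genes, of which 9 were called lower and 5 higher. Among all tested genes, 4.06% were called lower and 3.35% higher, the shares to set beside each list below. Among 16 tested non-classical and other class I heavy chains 2 fell and none rose. H2-T23, which encodes Qa-1, a ligand of NK and T cell receptors, was 379, 382 and 374 FPKM with control CM and 349, 343 and 346 FPKM with Tdo2high CM. Its log2 fold change was -0.13 (adjusted p = 0.0193 by limma), and 4 of 16 alternatives ended the call. H2-Q4 was 364, 378 and 371 FPKM with control CM and 345, 335 and 347 FPKM with Tdo2high CM (-0.12, adjusted p = 0.0395), and 10 of 16 alternatives ended the call, scaling by the median of ratios among them. In both genes the groups did not overlap. Both are relatives of H2-K1 and H2-D1 and may share reads with them. Of the 50-base windows of H2-K1 and H2-D1, 5.0% to 9.7% occurred in H2-Q4 or H2-T23. Of the 100-base windows, only those of H2-D1 occurred in H2-T23 (4.6%), and none in H2-Q4.

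None of 10 other immunoproteasome, PA28 and peptidase genes was called, and at an unadjusted p under 0.05 there were 2 lower and 2 higher by limma. Psme2, a subunit of the PA28 proteasome activator and the most abundant of these, had 344 ± 3.66 and 326 ± 8.93 FPKM (adjusted p = 0.144). Of 3 proteasome assembly genes Psmg1, an assembly chaperone, rose from 18.0 ± 0.362 to 20.7 ± 0.581 FPKM (adjusted p = 0.0133). The call of Psmg1 ended without Tdo2high CM replicate 3 (0.0541). Pomp, a maturation factor of the proteasome, had 71.0 ± 2.60 and 77.0 ± 3.03 FPKM and did not pass. None of 6 loading chaperones was called by limma, with 1 lower and 0 higher at an unadjusted p under 0.05. The most abundant of these, Hspa5, had a log2 fold change of -0.02.

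Interferon signalling is a main inducer of class I genes. Of 18 tested genes of the interferon receptors, JAK-STAT and IRF factors, 2 fell and 1 rose. Irf1, a transcription factor that acts on class I, TAP and PD-L1 genes, was 67.0, 66.8 and 65.2 FPKM with control CM and 55.3, 55.8 and 59.4 FPKM with Tdo2high CM. The groups were well apart (log2 fold change -0.22 ± 0.03 SE, adjusted p = 0.00462), and the call held in 16 of 16 alternatives. Stat2, part of the type I interferon factor, fell from 42.1 ± 1.45 to 37.1 ± 0.412 FPKM (adjusted p = 0.0122), also in 16 of 16 alternatives. Stat3, which acts downstream of IL-6 type cytokines, rose from 51.1 ± 0.882 to 59.3 ± 0.502 FPKM (adjusted p = 0.00181), again in all 16. Jak2 (0.04), the most abundant of the list, and Ifngr1 (-0.02), a chain of the interferon-gamma receptor, did not pass.

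Of 10 other interferon-gamma induced genes, 1 fell and 1 rose. Gbp4, a guanylate-binding protein, fell from 106 ± 2.41 to 94.8 ± 0.524 FPKM (adjusted p = 0.00722), and the T cell chemokine Cxcl10 rose from 4.92 ± 0.411 to 6.53 ± 0.743 FPKM (adjusted p = 0.0277). The call of Cxcl10 ended in 7 of 16 alternatives. Irgm1, the most abundant, had 108 ± 0.916 and 112 ± 1.96 FPKM and did not pass.

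Among 10 tested genes of class II presentation and its regulators, 2 fell. Cd74, the class II invariant chain, was 3.45, 4.35 and 3.13 FPKM with control CM and 1.97, 1.60 and 2.06 FPKM with Tdo2high CM. All treated libraries were lower (log2 fold change -0.69 ± 0.10 SE, adjusted p = 0.00401 by limma). Ciita, the transactivator of class II, did not exceed 0.22 FPKM, and the class II chain gene H2-Aa did not exceed 0.05 FPKM. Nfya, a subunit of the factor that binds CCAAT in class I and class II promoters, fell from 14.1 ± 0.218 to 12.4 ± 0.242 FPKM (adjusted p = 0.0245), a call that ended in 6 of 16 alternatives. Nfyc, another subunit and the most abundant of the list, had 16.2 ± 0.393 and 16.2 ± 1.68 FPKM.

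Of 15 tested checkpoint and NK ligands and PD-L1 regulators, 2 fell and 1 rose. Pvr and Nectin2, ligands of the receptors TIGIT and DNAM-1, fell from 15.0 ± 0.628 to 12.7 ± 0.509 FPKM (adjusted p = 0.0191) and from 20.7 ± 0.612 to 18.4 ± 0.324 FPKM (adjusted p = 0.0255). The groups did not overlap for either gene. Vsir, which encodes the checkpoint protein VISTA, rose from 5.79 ± 0.391 to 7.04 ± 0.289 FPKM (adjusted p = 0.0319). These calls ended in 3, 6 and 6 of 16 alternatives. Cmtm6, which keeps PD-L1 at the surface, had a log2 fold change of 0.02 and Lgals9, the most abundant of the list, of -0.02. None of 5 tested genes listed for a possible role in lowering class I at the surface was called by limma. Of these, 1 was lower at an unadjusted p under 0.05 (Marchf9, adjusted p = 0.0522). H13, a signal peptide peptidase and the most abundant of that list, had -0.04.

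**Figure D5:**
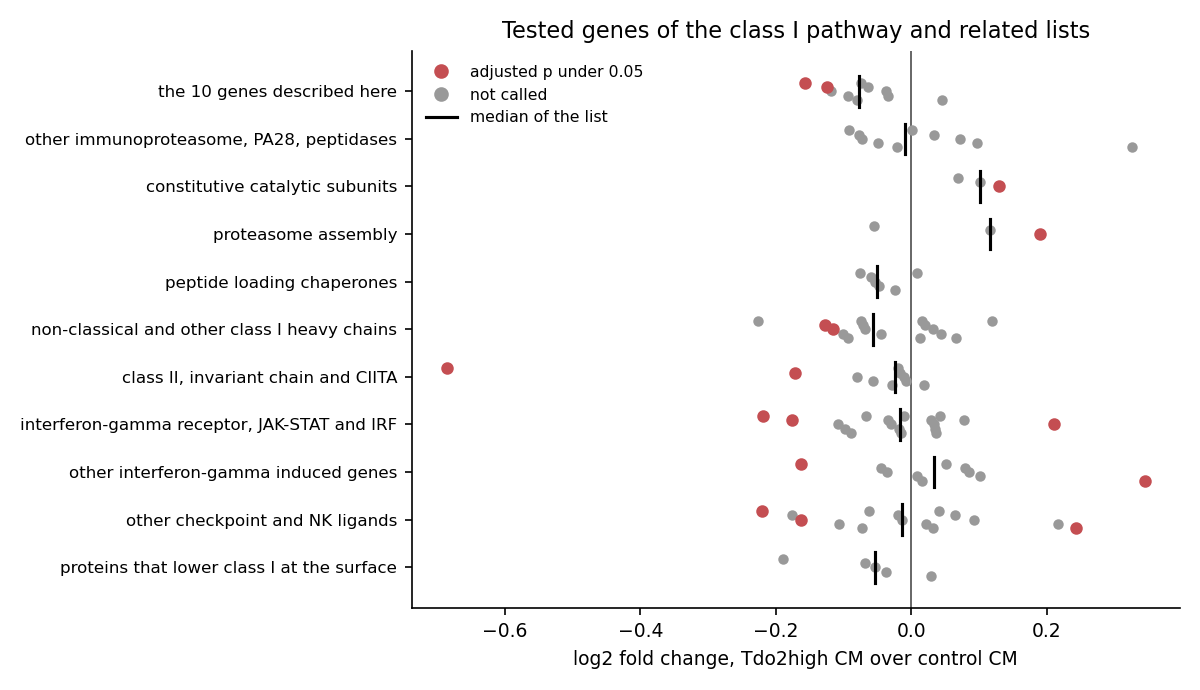
Log2 fold change, Tdo2high CM over control CM, of every tested gene in the 10 genes described here and in 10 related lists, with called genes in red, other genes in grey and the median of each list as a black bar. Cd74 at -0.69 lies farthest below 0, and Cxcl10 at 0.34 farthest above.

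The mean profile of the 10 genes across libraries, each gene centred on its own mean of log2(FPKM + 1), was 0.04, 0.04 and 0.03 with control CM and -0.02, -0.05 and -0.04 with Tdo2high CM. Among the 96 genes of the other lists the profile of Irf2 was nearest, with a root mean square difference of 0.02 over 6 libraries, followed by Pdia3, Cd276, Psme2 and H2-Q4 at 0.02 to 0.03. Of these 5 genes only H2-Q4 was called.

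Markers of lymphocytes and of myeloid, fibroblast, endothelial and epithelial cells ranged from near 0 to clearly expressed. None of 5 lymphocyte markers in the table reached 1 FPKM, and their sum was 0.35 to 0.51 FPKM with control CM and 0.43 to 0.56 with Tdo2high CM. Of 8 myeloid markers, 5 stayed below 1 FPKM in every library, Lyz2 at most at 0.10, and the sum was 10.6 to 12.0 FPKM against 15.7 to 16.9, with S100a8 the 1 called gene. Of 9 fibroblast markers, 4 stayed below 1 FPKM, Col1a1 at most at 0.12 but Pdgfra at 41.9 with control CM. The sum of the 9 was 113 to 117 FPKM against 125 to 129. The 2 called higher were Npnt (mean changed by 38.4%) and Pdgfra (12.9%), and the 1 called lower was Dcn (-30.0%). Endothelial markers, 2 of 4 below 1 FPKM, summed to 63.4 to 64.0 and 61.0 to 62.0 FPKM. Of 9 epithelial markers, 7 stayed below 1 FPKM, with Epcam at most at 0.11 and Cdh1 at most at 0.02, while Krt8 and Krt18 carried a sum of 616 to 652 and 638 to 668 FPKM. The part of the fibroblast and myeloid sums in the class I values was not tested. In bulk RNA, fewer cells expressing a gene and less of its RNA per cell cannot be told apart.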

How the data were processed

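Messenger RNA of 6 samples was sequenced at BGI after random-hexamer priming, per the labels' protocols, and the genome build was GRCm38, per the submitters' processing notes. No aligner, counter, annotation or strand setting is named in the labels or headers. Per the file headers, the deposited values are FPKM, which the table gives to 2 decimals. Library depth is therefore unknown and no counting interval is given. FPKM summed to 438603 to 447415 per library. Because FPKM is relative to a library's total, a change in abundant genes shifts all others.

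The 10804 genes that reached 1 FPKM in 3 or more libraries were tested as log2(FPKM + 1) by a two-sided test in limma 3.58.1 (R 4.3.3) with an intensity trend and no term for replicate number. P-values were adjusted over the 10804 genes by the method of Benjamini and Hochberg, with calls at an adjusted p under 0.05. Fold changes are on that scale and understate changes of weakly expressed genes. Ratios of transcripts were compared by exact permutation over the 20 arrangements of the libraries. On simulated data with the spread of these libraries, the fit recovered 15.6% of 1.1-fold and 63.2% of 1.2-fold changes. There, 4.21% of the calls were false. Each draw changed 200 genes of any level, while 801 were called in the data. The shares that hold for the 10 genes may therefore differ. Changes as small as those of the 10 genes can go uncalled. The members, lists and tests were chosen with earlier results of these data known. Named were all 10 members, from each other list its most abundant gene and the called genes that changed most (up to 4), and the 5 genes nearest in profile. Other genes named beside them (Psmb5, Psmb6, Psmb10, Ifngr1, Ciita, H2-Aa, Cmtm6, Marchf9) were chosen after their values were seen, as were the motifs. List genes were matched by symbol or NCBI synonym, and 26 symbols that read as dates were restored from the gene number. Positions and promoters come from RefSeq on GRCm38.p6. Coding sequences are the longest open reading frames of GENCODE M21 transcripts. The settings varied were the pseudocount, the filter, the scaling, the variance model, a replicate block and the set of libraries. Figures were drawn with matplotlib 3.10.9.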

Additional observations from a re-analysis of the deposited data

How the results depend on the processing

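Over 16 alternatives, the number of the 10 genes called lower ran from 0 to 4, against 2 in the main test. It was 1 with no filter on low values, with scaling by the median of ratios and with a replicate block. It was 2 with a pseudocount of 0.5. With a pseudocount of 0.1, a filter of at least 5 FPKM, the TPM scale or robust variance estimates it was 3 (H2-K1, H2-D1 and Tap2). Quantile normalization gave 4 (H2-K1, H2-D1, B2m and Tap2). The number was 0 with no trend in the variance model, and 0 to 1 without 1 library. None was called higher in any alternative. The changed genes in all numbered 801 in the main test, 394 with no filter on low values, 525 with no trend and 395 to 556 without 1 library. The replicate block left 622. Same-numbered libraries did not deviate together (correlations of -0.023, -0.03 and 0.018, against -0.077 to 0.092 for differently numbered libraries). These values cannot show whether same-numbered samples shared a batch or a culture. Tap2 was the only one of the 10 genes called in any fit without 1 library. H2-D1 and H2-K1 each stayed below 0 in 16 of 16 alternatives, with adjusted p from 0.0114 to 0.155 and from 0.0101 to 0.185, as did Tap2, from 0.00984 to 0.0543. The ratio differences kept their direction without any 1 library, at -0.121 to -0.0902 for Psmb8/Psmb5, -0.245 to -0.153 for Psmb9/Psmb6, -0.257 to -0.165 for Psmb10/Psmb7 and 0.0297 to 0.0524 for B2m over the heavy chains. With a replicate block the exact p for each was 0.25, the smallest that 3 pairs can give. Without 1 library the exact p ran from 0.1 to 0.2 for Psmb9/Psmb6 and from 0.2 to 0.3 for Psmb10/Psmb7. Read depth is unknown, and the spread of 3 libraries a group limits what can be said of changes this small.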
